A study of Homo sapiens with 11 samples.

Results

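The genes described here encode 10 proteins of amino acid transport at the human cell surface. They are SLC43A1, SLC7A5, SLC7A11, SLC7A1, SLC1A5, SLC1A4, SLC38A1, SLC38A2, SLC6A9 and SLC3A2, a heavy chain that partners transporters. They were chosen by name, through the symbol that matches each row's unversioned Ensembl identifier, and with the values of the comparison below already known, so those values are a description of the members and not a test of them. All 10 were found among 37247 gene rows, and all 10 were among the 14160 genes kept for testing, which had at least 1 TPM (transcript abundance scaled by length and library, so that each library has the same total) in at least 3 libraries. RNA was sequenced from cells labelled MDA-MB-231, an established line from a breast cancer, in 3 libraries labelled Control-KD with the genotype WT and 3 labelled H2AS40-KD with the genotype given as a knockdown of S40-type H2A. H2AS40 denotes histone H2A with a serine at residue 40, and the comparison sets libraries labelled as its knockdown against controls. The labels do not name the knockdown reagent, the time after it, or whether replicates were separate cultures, so every p-value rests on the variation among these libraries, and that variation may be technical. The depth of the libraries is unknown, because TPM keep no read totals.

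Amino acid transporters carry amino acids across membranes for protein synthesis, redox balance and nucleotide synthesis, and proliferating cancer cells depend on several of them. SLC7A5 (LAT1) and SLC7A11 (xCT) are light chains that reach the cell surface bound by a disulfide to one heavy chain, SLC3A2 (CD98). Many transporter genes are switched on by the transcription factor ATF4 when amino acids run short, and some by MYC.

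The labels could be checked only in part. H2AC25, taken as an S40-type H2A gene from recollection of its protein and not from a sequence at hand, had 32.4, 33.5 and 31.3 TPM in the control libraries, against 33.3, 34.8 and 32.6 TPM under the knockdown label, ranges that overlap. H2AC7, another such gene by recollection, was listed at 0, 0 and 2.97 TPM in the control libraries, against 0.968, 0 and 0.256 TPM under the knockdown label, too low and variable to check the label. A lower level of the targeted messages was therefore not shown by either gene, and the groups are named by their labels throughout, as Control-KD or control and as knockdown-labelled. Of 6 genes that MDA-MB-231 is commonly described as lacking or holding at low levels, 5 were above 5 TPM in every library. GATA3 had 436 to 471 TPM, FOXA1 75.2 to 94.0 TPM, CDH1 56.8 to 64.8 TPM, ERBB2 27.7 to 31.9 TPM and ESR1 12.3 to 21.2 TPM, while PGR had 1.2 to 2.18 TPM. Those of GATA3, FOXA1, CDH1 and ESR1 go against the label of the cell line. The 6 genes expected to be abundant in the line (VIM, CD44, KRT18, KRT8, EGFR and ANXA1) were above 5 TPM in every library. Since 5 of the 6 genes expected to be low were too, passing this level does not check the label. Control-KD replicate 3 stood apart, at -31.2 on the first principal component against -0.784 to 12 for the other libraries. Of 9 blood cell markers, MS4A1 and TYROBP were at 0 in every library. The list summed to 59.8 to 67.3 TPM in Control-KD and 42.2 to 52.3 TPM under the knockdown label, of which CD68 made up nearly all (without it 1.93 to 2.96 and 1.27 to 2.31 TPM). Of 9 endothelial and fibroblast markers, 0 were at 0 in every library, and they summed to 8.96 to 12 and 8.83 to 12.4 TPM. The part of these markers in the results below was not tested. In RNA from whole cultures, fewer cells with a message and less of that message in each cell cannot be told apart.

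Promoter sequences are shown for the members whose start sites hold motifs of MYC or ATF4, the factors named above. Sequences are from RefSeq (GRCh38.p14), which held 16 promoter windows for 9 of the 10 members, and none for SLC7A11. Each window runs 300 bases along the gene's own strand, from 250 before the transcription start to 50 after it. The motifs were searched on both strands: CACGTG, the E-box bound by MYC with MAX, TGATGNAA, the core of the element bound by ATF4 with a C/EBP partner, and TGACNNNGC, the core of the antioxidant response element bound by NRF2. Capitals mark the matches, and no matches of different motifs overlapped. In the SLC43A1 window at chr11:57515653-57515952 (minus strand) the E-box lay 112 to 107 bases before the start. In the SLC3A2 window at chr11:62881449-62881748 (plus strand) the antioxidant core lay 37 to 29 bases before the start, and the ATF4 core, read on the opposite strand, 38 to 45 bases after it.
SLC43A1: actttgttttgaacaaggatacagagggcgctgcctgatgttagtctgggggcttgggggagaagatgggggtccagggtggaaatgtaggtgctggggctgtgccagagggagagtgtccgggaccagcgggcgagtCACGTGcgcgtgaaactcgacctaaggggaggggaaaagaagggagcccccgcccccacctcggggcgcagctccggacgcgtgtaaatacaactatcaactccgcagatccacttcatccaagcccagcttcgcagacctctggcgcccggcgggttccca
SLC3A2: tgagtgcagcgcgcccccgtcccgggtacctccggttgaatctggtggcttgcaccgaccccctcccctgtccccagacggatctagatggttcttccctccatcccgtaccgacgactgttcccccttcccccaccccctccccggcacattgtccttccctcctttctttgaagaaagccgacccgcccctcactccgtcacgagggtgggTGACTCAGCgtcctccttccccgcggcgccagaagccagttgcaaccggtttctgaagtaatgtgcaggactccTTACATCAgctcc

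Shorter stretches around a single match show the same motifs in other members. The SLC7A5 stretch (chr16:87869610-87869667, minus strand) and the SLC1A5 E-box stretch (chr19:46787316-46787373, minus strand) hold CACGTG. The stretches of SLC7A1 (chr13:29595652-29595711, minus strand) and SLC38A1 (chr12:46266491-46266550, minus strand) hold the ATF4 core. So do those of SLC1A4 (chr2:64989362-64989421, plus strand), where it is read on the opposite strand, and of another SLC1A5 start (chr19:46784882-46784941, minus strand).
SLC7A5: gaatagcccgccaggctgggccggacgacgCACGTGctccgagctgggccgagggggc
SLC1A5, E-box: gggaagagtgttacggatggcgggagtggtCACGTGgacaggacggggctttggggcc
SLC7A1: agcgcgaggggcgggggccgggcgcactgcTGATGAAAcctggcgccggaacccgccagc
SLC38A1: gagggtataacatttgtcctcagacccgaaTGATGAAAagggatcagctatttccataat
SLC1A4: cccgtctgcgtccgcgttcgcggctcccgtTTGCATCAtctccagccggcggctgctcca
SLC1A5, ATF4 core: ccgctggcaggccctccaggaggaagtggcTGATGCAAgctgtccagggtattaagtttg

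Of the 16 member windows, 5 held TGATGNAA, where 3.62% of all 35116 promoter windows of the same length did. CACGTG was in 3 member windows and 7.26% of all windows, and TGACNNNGC in 4 member windows and 13.3% of all windows. Members with several start sites have several windows, so windows are not independent, and these shares describe the letters only. The windows of SLC38A2 and SLC6A9 held none of these motifs, and SLC7A11 had no window to search. Further windows of SLC43A1, SLC3A2, SLC38A1, SLC1A4 and SLC1A5 held none of them either. In SLC3A2, SLC1A4 and SLC1A5 these included the window at the most upstream start of the gene. Members with an E-box or ATF4 core in any window had unlike log2 fold changes (knockdown label minus control, described below). The value was 0.53 in SLC43A1, 0.14 in SLC3A2 and 0.15 in SLC1A5. In SLC7A5, SLC7A1, SLC38A1 and SLC1A4 it was -0.04, -0.01, -0.02 and -0.03. A link between motifs and these values was not tested. A match is not a measured binding site, and the chromatin immunoprecipitation samples of the series were not analysed here.

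TPM is scaled by length, so the levels of the members can be ordered. SLC3A2, the CD98 heavy chain, was the most abundant with a mean of 896 TPM over the 6 libraries, above 98.9% of tested genes. SLC1A5 (ASCT2), a glutamine and neutral amino acid exchanger, followed with 183 TPM, and its lowest library (173 TPM) lay above the highest of SLC7A5 (165 TPM). SLC7A5, the light chain for large neutral amino acids such as leucine, averaged 153 TPM. The sodium-coupled neutral amino acid transporters SLC38A1 (SNAT1) and SLC38A2 (SNAT2) averaged 146 and 132 TPM. The ranges of SLC7A5 and SLC38A1 overlapped, as did those of SLC38A1 and SLC38A2, so the order within this trio is not fixed by these libraries.

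The remaining members were lower. SLC7A1 (CAT1), the cationic amino acid transporter for arginine and lysine, averaged 30.7 TPM. SLC43A1 (LAT3), which moves leucine and other large neutral amino acids without a heavy chain, averaged 13.4 TPM, and SLC7A11, which takes up cystine in exchange for glutamate, averaged 11.9 TPM, with overlapping ranges. SLC6A9 (GLYT1), a glycine transporter, averaged 6.25 TPM, and SLC1A4 (ASCT1), an exchanger of alanine, serine and cysteine, 3.86 TPM. Every other neighbouring pair in the order had ranges that did not meet. For SLC6A9 and SLC1A4, the lowest of the order, the lowest value of the first was 4.97 TPM and the highest of the second 4.23 TPM.

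**Figure D1:**
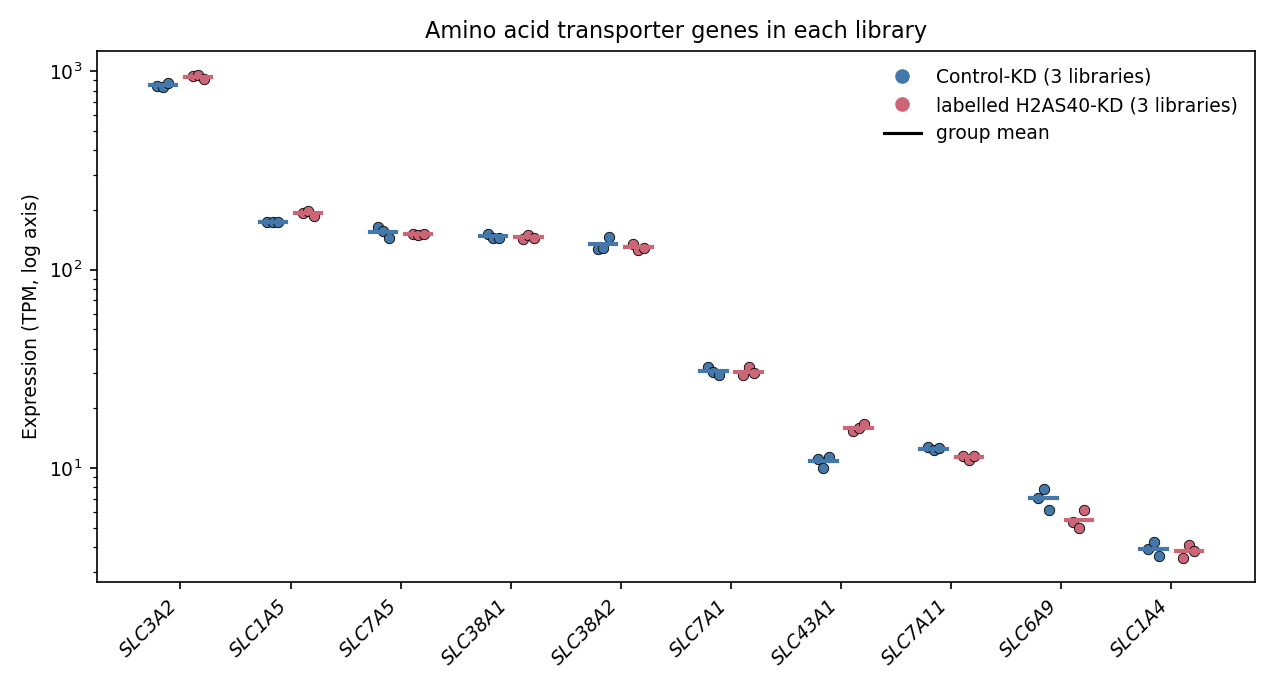
Expression of the 10 amino acid transporter genes in each library (TPM, log axis), ordered by mean level. Points are libraries, 3 labelled Control-KD and 3 labelled H2AS40-KD, and lines are group means. SLC43A1 lies at 10.0 to 11.3 TPM in Control-KD and 15.3 to 16.7 TPM under the knockdown label, while the groups overlap in 5 of the 10 genes.

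SLC43A1 was the member with the largest relative difference, on the log2 scale; in TPM, the differences of SLC3A2 and SLC1A5 were larger. It had 11.1, 10.0 and 11.3 TPM in the control libraries, against 15.3, 15.9 and 16.7 TPM under the knockdown label. Every knockdown-labelled library lay above every Control-KD library. The means were 10.8 ± 0.670 and 16 ± 0.745 TPM (SD, n = 3 per group), a difference of 47.9%, and the log2 fold change of TPM + 1 was 0.53 with a 95% interval from 0.34 to 0.71. On the scale of TPM + 1, fold changes of low genes are understated. SLC43A1 (ENSG00000149150.8) lies on chromosome 11 from 57484534 to 57515702 (GRCh38). It was the 1 member of 10 called by limma at an adjusted p of 0.05 over all genes, where 1.26% of tested genes were called (0.516% higher and 0.742% lower). Its adjusted p was 0.0353 in that fit, and 0.0487 to 0.151 when 1 library was left out, with the call kept only without Control-KD replicate 3. The call was also lost without an intensity trend in the variances (limma adjusted p = 0.0629) and with no filter on low values (limma adjusted p = 0.0721).

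The pair that carries most of the message, SLC3A2 and SLC1A5, was also higher in every knockdown-labelled library. SLC3A2 (chromosome 11, 62856109 to 62888860) had 847, 839 and 872 TPM in the control libraries, against 944, 960.1 and 915 TPM under the knockdown label. The means were 853 ± 17.3 and 939.9 ± 22.6 TPM (SD, n = 3 per group), a difference of 10.2%. SLC1A5 (chromosome 19, 46774883 to 46788594) had 174, 174 and 173 TPM against 193, 197 and 187 TPM. Its Control-KD libraries were nearly equal, with 174 ± 0.676 TPM against 193 ± 5.12 TPM (SD, n = 3 per group), a difference of 10.8%. The log2 fold changes were 0.14 (95% interval 0.07 to 0.21) for SLC3A2 and 0.15 (0.07 to 0.22) for SLC1A5. Neither was called, except SLC3A2 under quantile normalization (limma adjusted p = 0.032).

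SLC7A11 and SLC6A9 were lower in every knockdown-labelled library, and neither was called. SLC7A11 (chromosome 4, 138164097 to 138242349) had 12.7, 12.3 and 12.6 TPM in the control libraries, against 11.5, 11.0 and 11.5 TPM under the knockdown label. The means of 12.6 ± 0.233 and 11.3 ± 0.323 TPM (SD, n = 3 per group) differed by -9.76%, and the log2 fold change was -0.14 with a 95% interval from -0.31 to 0.03. An antisense gene overlaps SLC7A11 in RefSeq, and whether the libraries kept strand is not given, so reads of the 2 cannot be told apart. SLC6A9 (chromosome 1, 43996483 to 44031462) had 7.05, 7.85 and 6.17 TPM against 5.36, 4.97 and 6.13 TPM. Its lowest Control-KD library and highest knockdown-labelled library were almost level. The means of 7.02 ± 0.840 and 5.49 ± 0.591 TPM (SD, n = 3 per group) differed by -21.9%, with a log2 fold change of -0.31 and a 95% interval from -0.60 to -0.01. CCDC24, which overlaps the end of SLC6A9, had 8.67 ± 1.56 and 9.21 ± 0.991 TPM (SD, n = 3 per group).

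In the other 5 members the groups overlapped and the means differed by at most 3.1%. SLC7A5 (chromosome 16, 87830023 to 87869507) had 165, 157 and 144 TPM in the control libraries, against 152, 149 and 151 TPM under the knockdown label. The spread lay in Control-KD, where replicate 3 was lowest, and the log2 fold change was -0.04 (95% interval -0.16 to 0.08), or -0.09 without that library. SLC7A5P1, a pseudogene of SLC7A5, had 2.81 ± 1.26 and 3.21 ± 0.310 TPM (SD, n = 3 per group) and could share reads with it, and an antisense gene overlaps SLC7A5 in RefSeq. SLC38A2 (chromosome 12, 46358188 to 46372773) had 127, 128 and 147 TPM against 135, 126 and 129 TPM. Here Control-KD replicate 3 was highest, and the log2 fold change of -0.04 (95% interval -0.19 to 0.11) was 0.02 without it.

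SLC38A1 (chromosome 12, 46183063 to 46269043), which lies 89.1 kb from SLC38A2, had 152, 145 and 145 TPM in the control libraries, against 143, 149 and 145 TPM under the knockdown label. Its log2 fold change was -0.02 (95% interval -0.10 to 0.07). SLC7A1 (chromosome 13, 29509414 to 29595688) had 32.4, 30.4 and 29.6 TPM against 29.4, 32.2 and 30.1 TPM, with a log2 fold change of -0.01 (95% interval -0.16 to 0.14). SLC1A4 (chromosome 2, 64988479 to 65023865) had 3.92, 4.23 and 3.60 TPM against 3.53, 4.08 and 3.80 TPM. At this low level its interval was wide, from -0.31 to 0.24 around a log2 fold change of -0.03. For these 5 genes a difference was not detected, and the intervals give the sizes that these libraries leave possible.

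Across the 10 members the log2 fold changes had a median of -0.02, beside 0.01 over all tested genes, with 3 positive and 7 negative. The groups did not overlap in 5 members, 3 higher and 2 lower. Over all tested genes the groups did not overlap in 24.2%, with 12.9% higher and 11.3% lower. An unadjusted limma p under 0.05 was given to 4 members and to 16.5% of all tested genes. Because the members were chosen with this contrast known, nothing is read from how these counts compare with the background. Variation between replicates, as a coefficient of variation, ran from 0.389% (SLC1A5) to 12% (SLC6A9) in Control-KD. In the knockdown-labelled libraries it ran from 0.858% (SLC7A5) to 10.8% (SLC6A9).

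**Figure D2:**
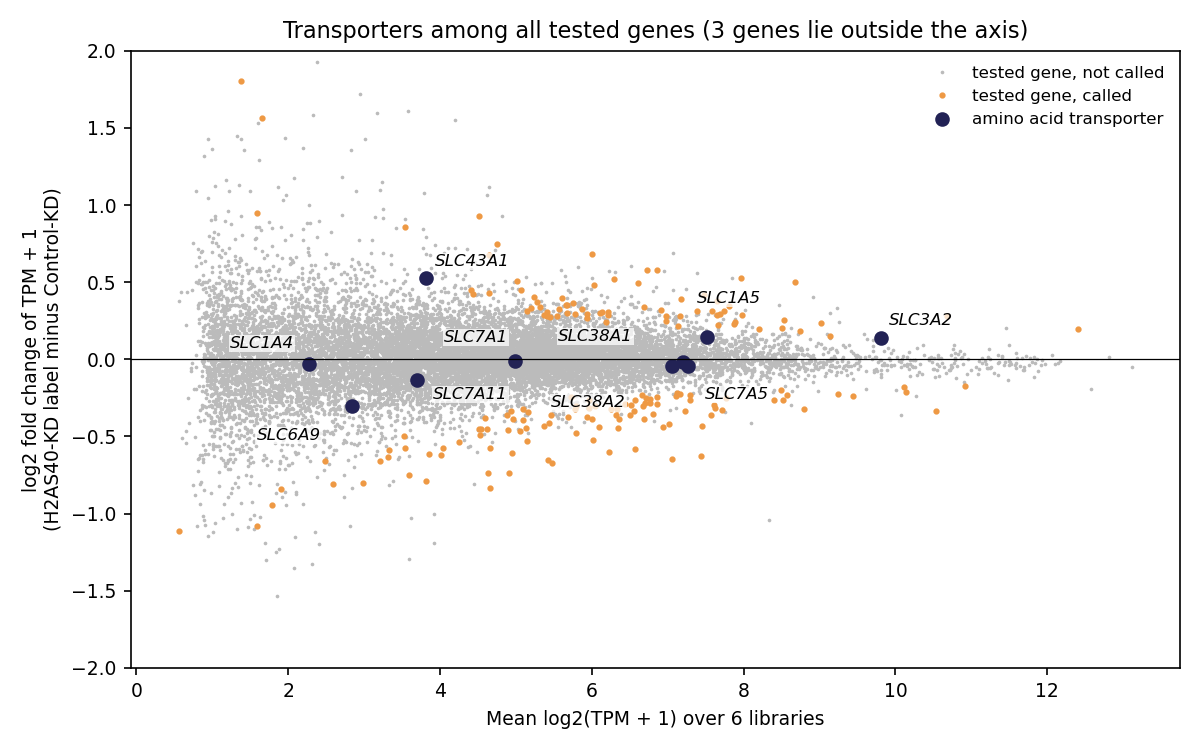
Log2 fold change of TPM + 1 (knockdown label minus control) against mean log2(TPM + 1) for the tested genes. Grey points are genes not called by limma, orange points are called genes and dark points the 10 transporter genes, and 3 genes lie outside the axis. SLC43A1 stands at 0.53, SLC3A2 and SLC1A5 at 0.14 and 0.15, and the lowest member, SLC6A9, at -0.31.

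SLC3A2 was higher in each knockdown-labelled library, while the summed light chains overlapped between groups; the difference between these patterns was not tested. The 6 light chains that pair with SLC3A2 (SLC7A5, SLC7A6, SLC7A7, SLC7A8, SLC7A10 and SLC7A11) summed to 207, 195 and 190 TPM in Control-KD and to 195, 192 and 202 TPM under the knockdown label, ranges that overlap. As a share of SLC3A2 this was 24.4%, 23.3% and 21.8% in Control-KD and 20.6%, 20.0% and 22% under the knockdown label, so each library held more SLC3A2 than light-chain message. The shares averaged 23.2 ± 1.32% and 20.9 ± 1.04% (SD, n = 3 per group), and they overlapped through Control-KD replicate 3 and replicate 3 labelled H2AS40-KD.

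SLC7A5 made up 74.9% to 80.4% of the light chains in every library. SLC7A6, which pairs with SLC3A2 to exchange cationic for neutral amino acids, had 27.9, 24.6 and 31.7 TPM in the control libraries, against 29.8, 30.9 and 37.8 TPM under the knockdown label. SLC7A11 made up 6.16%, 6.29% and 6.64% of the light chains in Control-KD and 5.93%, 5.70% and 5.70% under the knockdown label. SLC7A7 and SLC7A8 stayed at or under 1.63 TPM, and SLC7A10 was listed at 0 in 5 libraries. These ratios use members chosen with the contrast known and were not tested.

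**Figure D3:**
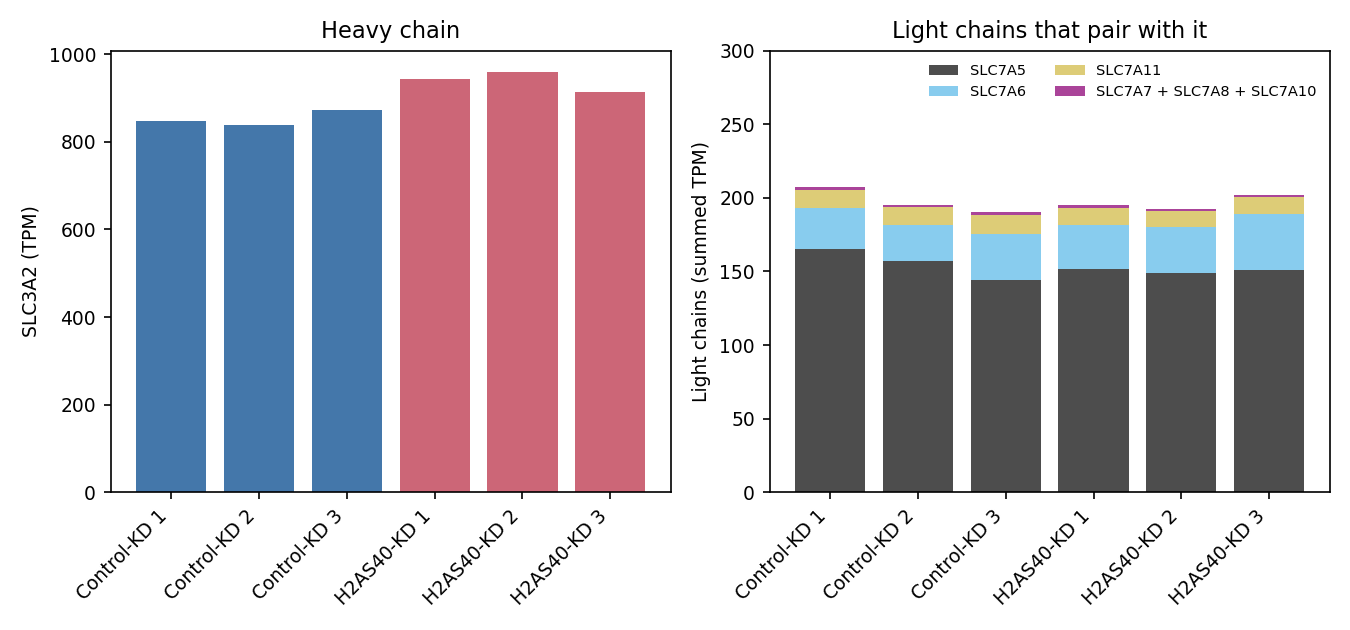
Left, TPM of the heavy chain SLC3A2 in each library; right, summed TPM of the 6 light chains that pair with it, stacked by gene. SLC3A2 runs from 839 to 872 TPM in Control-KD (blue) and from 915 to 960.1 TPM under the knockdown label (red), while the light-chain sums run from 190 to 207 and from 192 to 202 TPM.

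Within the paired families, one gene dominated in the ASCT exchangers and neither in the SNATs. SLC1A5 was 41.1 to 54.8 times as abundant as SLC1A4 across libraries, with a mean ratio of 44.6 ± 3.49 in Control-KD and 50.8 ± 3.47 under the knockdown label (SD, n = 3 per group). SLC38A1 and SLC38A2 were close to 1 to 1, with ratios of 1.10 ± 0.108 and 1.12 ± 0.0614 (SD, n = 3 per group). The 2 leucine carriers SLC7A5 and SLC43A1 together had 166 ± 10.3 and 167 ± 1.38 TPM (SD, n = 3 per group). The difference in SLC43A1 was 5.17 TPM, and the SD of SLC7A5 was 10.5 TPM in Control-KD and 1.29 TPM under the knockdown label. The 9 members that transport by themselves or as light chains made up 81.1% to 82.3% of the summed TPM of cell surface amino acid transporters, counted with 31 others.

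By root mean square distance between log2(TPM + 1) profiles over the 6 libraries, each set to its Control-KD mean, the 3 genes most like SLC43A1 were ZNF57, NR1D1 and KLF10. The distances were 0.0488, 0.0499 and 0.0543, among 10603 genes with a symbol and a mean of at least 5 TPM. ZNF57, a zinc finger gene, had 4.76, 4.03 and 5.21 TPM in the control libraries, against 7.01, 7.28 and 7.57 TPM under the knockdown label and was not called. NR1D1, a repressor of the circadian clock, had 65.9, 58.9 and 68.2 TPM against 94.5, 90.7 and 92.3 TPM and was called (limma adjusted p = 0.0173). KLF10, a Kruppel-like transcription factor, was called too (limma adjusted p = 0.00399), with log2 fold changes of 0.52 for NR1D1 and 0.58 for KLF10. The measure weighs the size of the group difference as well as the library pattern.

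Among the other transporters listed by name, 0 of 30 tested genes were called by limma and 7 had an unadjusted p under 0.05, beside 1.26% and 16.5% of all tested genes. The lists also hold SLC29A3, known as a nucleoside transporter, and SLC25A39 and SLC25A40, known as mitochondrial glutathione carriers, and SLC25A40 is one of the 7. The list held 57 genes, of which 56 were in the table. Their median log2 fold change was 0.04. The lists were chosen with earlier results of these data known, so nothing is read from their counts against the background. Of the cell surface carriers, 9 of 32 were tested, and SLC7A2, a second cationic amino acid transporter, had the smallest p. It had 81.6, 80.1 and 81.7 TPM in the control libraries, against 72.0, 73.2 and 72.4 TPM under the knockdown label, groups that did not overlap (log2 fold change -0.16, 95% interval -0.24 to -0.07, limma adjusted p = 0.105). SLC7A2 was thus above its relative SLC7A1 in every library.

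Of the lysosomal carriers 9 of 11 were tested, with a median of 0.07. SLC66A1, which exports cationic amino acids from lysosomes, had 29.6 ± 1.76 and 35.1 ± 2.22 TPM (SD over 3 libraries each, limma adjusted p = 0.172). Of the mitochondrial carriers 12 of 14 were tested, with a median of 0.04. SLC25A38, the glycine carrier needed for haem synthesis, had 56.0 ± 3.65 and 67.2 ± 0.132 TPM (SD over 3 libraries each, limma adjusted p = 0.0878). Neither list held a gene called by limma, and 1 lysosomal and 4 mitochondrial genes, SLC25A40 among them, had an unadjusted p under 0.05.

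**Figure D4:**
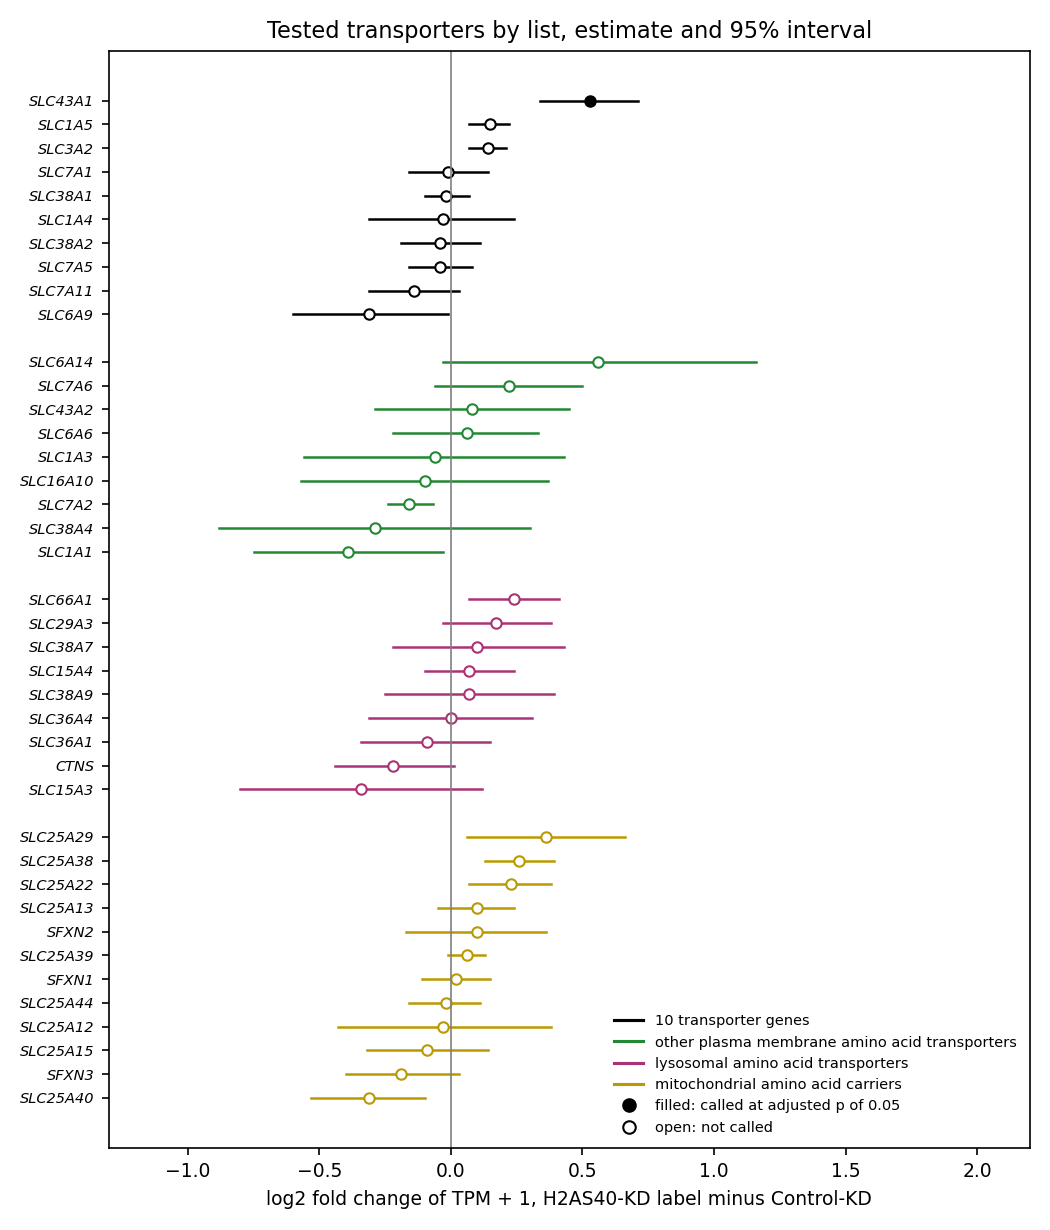
Log2 fold change of TPM + 1 (knockdown label minus control) with limma's 95% interval for the 10 transporter genes (black) and the 30 other tested transporters of the lists, by site, glutathione and nucleoside carriers included. Filled points were called at an adjusted p of 0.05, open points were not. SLC43A1 is the 1 filled point, and the widest intervals belong to genes of low or variable level.

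The list for the amino acid stress response holds ATF4, kinases upstream of it and genes it directs. Of 23 tested, 2 were called higher and 0 lower, and 8 had an unadjusted limma p under 0.05. Over all tested genes, 0.516% were called higher, 0.742% were called lower and 16.5% had an unadjusted limma p under 0.05. These shares are the background for the list counts that follow too. The lists were chosen with earlier results of these data known, so nothing is read from how their counts compare with that background. PPP1R15A (GADD34), which restores translation by guiding dephosphorylation of eIF2 alpha, had 344, 343 and 340 TPM in the control libraries, against 473, 488 and 490 TPM under the knockdown label. It rose by a log2 fold change of 0.50 ± 0.027 (SE, limma adjusted p = 0.00332). ATF4 itself rose from 338 ± 6.60 to 390.3 ± 6.70 TPM (SD, n = 3 per group), a log2 fold change of 0.21 (limma adjusted p = 0.0282). The list median was 0.10, beside 0.01 for all tested genes, with 15 positive and 8 negative. The groups did not overlap in 7 genes that were higher and 2 that were lower, beside 12.9% and 11.3% of all tested genes. Those lower were DDIT4 and GCN1, with log2 fold changes of -0.34 and -0.19. Neither was called (limma adjusted p = 0.146 and 0.147). For TRIB3 and CHAC1 the groups overlapped. These 4 genes are named after their values were seen. With 1 library left out, ATF4 had limma adjusted p-values of 0.0382 to 0.127 and was called only without Control-KD replicate 3, and PPP1R15A had 0.00669 to 0.0476.

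Of 26 tested amino acid synthesis enzymes, OAT, ornithine aminotransferase, fell from 60.4 ± 2.43 to 48.7 ± 0.910 TPM (SD over 3 libraries each, log2 fold change -0.30, limma adjusted p = 0.0396) and was the 1 called gene. With any 1 library left out it was not called (limma adjusted p from 0.059 to 0.159), and the list median was -0.03. The list of aminoacyl-tRNA synthetases held 23 tested genes, the scaffold genes AIMP1, AIMP2 and EEF1E1 among them. None was called by limma, and 5 had an unadjusted p under 0.05. EPRS1, which charges glutamate and proline tRNAs, had the smallest p, at 62.2 and 55.8 TPM (limma adjusted p = 0.175), and the list median was -0.05.

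Of 35 tested genes for amino acid sensing by mTORC1, the growth kinase complex that leucine and arginine activate, 0 were called and 7 had an unadjusted limma p under 0.05. RRAGC, one of the Rag GTPases that bring mTORC1 to lysosomes, had 63.4 and 73.4 TPM (limma adjusted p = 0.118), and the list median was 0.05. Of 13 tested genes for the use of cystine in glutathione synthesis and redox control, 0 were called and 1 had an unadjusted limma p under 0.05. That gene, GGT1, which splits extracellular glutathione, had 2.70 and 1.81 TPM (limma adjusted p = 0.291).

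Among 15 tested partners and regulators of the transporters, 4 were called higher and 0 lower, where 0.516% and 0.742% of all tested genes were, and 9 had an unadjusted limma p under 0.05, where 16.5% of all did. The groups did not overlap in 6 genes that were higher and 3 that were lower under the knockdown label. Those lower were CD44, LAPTM4B and BSG, with log2 fold changes of -0.21, -0.14 and -0.08. None of these 3 was called (limma adjusted p = 0.0543, 0.147 and 0.178). MYC had 220.2, 204 and 198 TPM in the control libraries, against 319, 290.4 and 287 TPM under the knockdown label, groups that did not overlap. It rose by a log2 fold change of 0.53 (95% interval 0.39 to 0.66, limma adjusted p = 0.0137). TXNIP, an arrestin-related protein that restrains glucose uptake, had 174, 171 and 179 TPM in the control libraries, against 221, 234 and 226 TPM under the knockdown label (log2 fold change 0.38, limma adjusted p = 0.0129). NEDD4L, a ubiquitin ligase that takes membrane transporters off the surface, rose from 171 ± 5.15 to 212 ± 5.46 TPM (SD over 3 libraries each, log2 fold change 0.31, limma adjusted p = 0.0182). ATF4, counted above, is the fourth. With 1 library left out, limma adjusted p-values were 0.0272 to 0.0778 for MYC, 0.0156 to 0.0789 for TXNIP and 0.0335 to 0.102 for NEDD4L. MYC and TXNIP were called without Control-KD replicate 3 or knockdown-labelled replicate 3, NEDD4L only without the former, and each lost its call without any other library. The list median was 0.13. This list was chosen with earlier results of these data known, so nothing is read from how its counts compare with the background.

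Carriers of other nutrients and ions included 4 genes called lower and 0 called higher among 30 tested, where 0.742% and 0.516% of all tested genes were, with 10 at an unadjusted limma p under 0.05 and a median of -0.04. The groups did not overlap in 9 genes that were lower and 7 that were higher under the knockdown label. SLC2A1, the glucose transporter GLUT1, fell by a log2 fold change of 0.32 (limma adjusted p = 0.0262). ATP1B1, the beta subunit of the sodium pump, fell from 114 ± 2.38 to 93.7 ± 3.64 TPM (SD over 3 libraries each, limma adjusted p = 0.0327). The phosphate transporter SLC20A1 fell too and is named after its values were seen (149 and 128 TPM, limma adjusted p = 0.0434). With 1 library left out, limma called SLC2A1 and ATP1B1 only without Control-KD replicate 3, and their adjusted p-values otherwise ran from 0.0632 to 0.155. Whether these carriers differ as a class from the amino acid transporters was not tested. As this list too was chosen with earlier results known, nothing is read from its counts against the background.

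**Figure D5:**
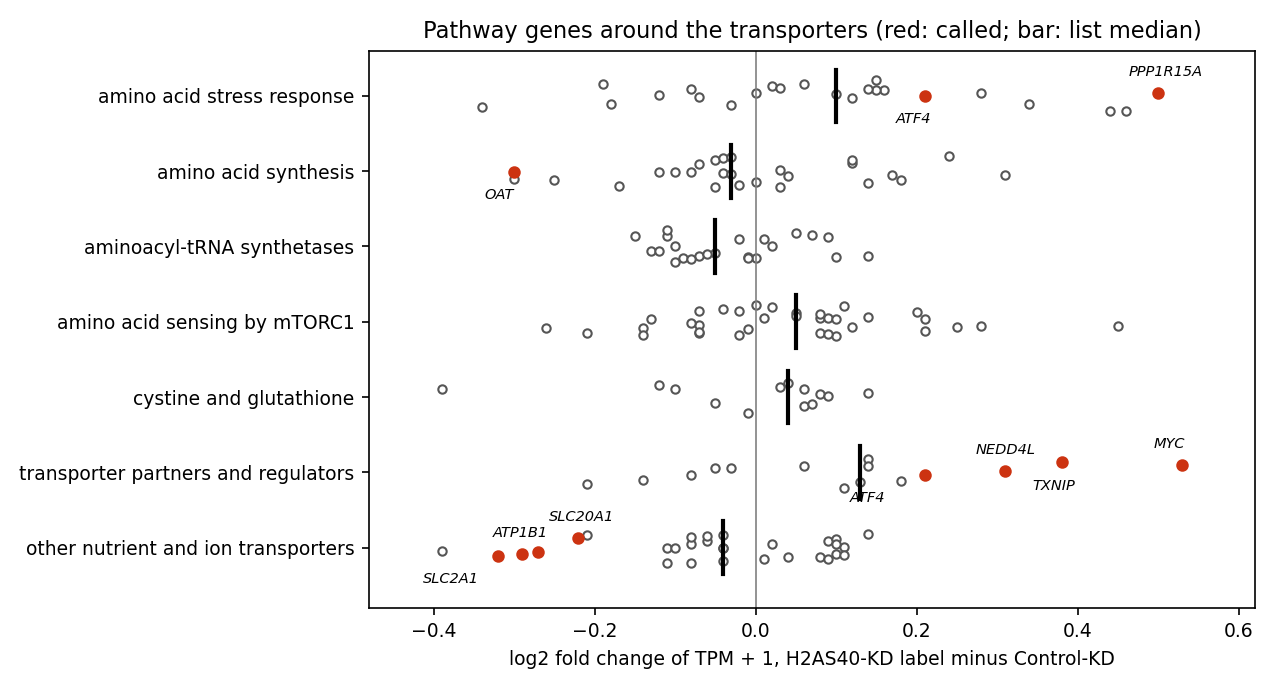
Log2 fold change of TPM + 1 (knockdown label minus control) of every tested gene in 7 lists. Red points were called at an adjusted p of 0.05, with the names of those described, and open points were not, and black bars are list medians. Called genes lie to the right in the stress response and regulator lists and to the left in the synthesis and other nutrient lists.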

How the data were processed

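The deposited values are gene-level TPM, divided by transcript length and scaled to a common total by the authors, and each library sums to 1000000. No source used here gives the quantification tool; hg38, Bowtie2 and MACS2 are named with no role, per the submitters' processing notes. Symbols were matched to 34436 of 37247 Ensembl identifiers, and coordinates and promoters are from RefSeq. The 14160 genes that reached 1 TPM in 3 or more of the 6 libraries were analysed as log2(TPM + 1) with limma 3.58.1 in R 4.3.3 (eBayes with an intensity trend, two-sided, Benjamini-Hochberg over all tested genes, threshold 0.05), a step tested on simulated data. The members and gene lists were chosen with earlier results of these data known. Named genes are the members, up to 3 called genes with the largest change per list or the gene with the smallest p, the SLC3A2 light chains and the 3 genes most like SLC43A1. Of 263 list genes, SLC66A4 and PYCR3 had no match. Alternatives covered pseudocount, filter, scaling, variance trend, gene span, a replicate term and each library left out. Chromatin immunoprecipitation samples (5) were left out. No library repeated another (at most 0.113% identical values). One called gene of the other nutrient and ion transporters is counted but not reported here.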

Additional observations from a re-analysis of the deposited data

How the results depend on the processing

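Over 15 alternatives, the 10 members gave 149 log2 fold changes, of which 131 kept their direction and their side of the threshold. SLC43A1 kept its direction in all 15 and lost its call in 8. Sign changes were in members with log2 fold changes near 0: SLC7A1 at 0.0044 with the gene-span trend removed, and, leaving out 1 library at a time, ranges of -0.05 to 0.03 (SLC7A1), -0.08 to 0.01 (SLC1A4), -0.03 to 0.00747 (SLC38A1), -0.08 to 0.02 (SLC38A2) and -0.09 to 0.00254 (SLC7A5). SLC43A1 ranged from 0.48 to 0.56 in those fits.

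The calls depended more on the processing than the fold changes did. Against 73 genes higher and 105 lower, 43 and 55 were called with no filter on low values, where more genes enter the adjustment, and 5 and 5 without an intensity trend. With the gene-span trend removed 52 were higher and 129 lower. Called members numbered 0 with no filter (3 at an unadjusted p under 0.05) and 0 without a trend (5 unadjusted), and 2 under quantile normalization, where SLC3A2 was added. The 6 called pathway genes became 0 without a trend (29 unadjusted). With 1 library left out, which also lowers power, 3 to 74 genes were higher and 2 to 85 lower, with 0 to 1 members (3 to 5 unadjusted) and 1 to 6 pathway genes called. The counts with Control-KD replicate 3 left out were 74 and 85, and those with another library left out were at most 15 and 19. PPP1R15A was called in each of these fits. The other amino acid transporters gave 0 limma calls under all 15 alternatives (5 to 10 unadjusted). The causes of these losses were not tested.

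No pairing by replicate number was detected: deviations of same-numbered libraries correlated at -0.064 to -0.002. With so few libraries this cannot show that they were unpaired. With the replicate number as a block, limma called 0 genes higher and 0 lower (2032 unadjusted), 0 members (3 unadjusted) and 0 pathway genes (30 unadjusted). Depth is unknown from TPM, so what it limits cannot be stated beyond the spread between libraries.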
